A study of Mus musculus with 38 samples.

Results

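The insulin-like growth factor (IGF) system was examined through 9 of the 35682 genes in the count table: the ligands Igf1 and Igf2, the receptors Igf1r and Igf2r, and the binding proteins Igfbp3, Igfbp4, Igfbp5, Igfbp6 and Igfbp7. They were picked by symbol, through the Ensembl identifier of each row, and all 9 were found. IGF-1 and IGF-2 are secreted peptides that signal through the receptor tyrosine kinase encoded by Igf1r, by way of insulin receptor substrates, PI3-kinase and Akt. The Igf2r product is a mannose 6-phosphate receptor that takes up and degrades IGF-2 and does not carry this signal. IGF-binding proteins hold the ligands in blood and tissue and are themselves cut by proteases, so that they store, carry or withhold the ligand. The Igfbp7 product binds IGFs weakly. In the heart the system is known for growth, survival and the response to injury.

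RNA was sequenced from the 3′ end of transcripts in 38 libraries of cardiomyocytes (13), endothelial cells (ECs, 13) and fibroblasts (12) from male C57BL/6 mice aged 8 to 12 weeks, each library made from 2 pooled hearts. Control-AMI mice received the vehicle, DMSO in saline, for 6 weeks and then had the left anterior descending artery tied for 30 min and reopened for 2 h. EMPA–Pre-AMI mice received empagliflozin (EMPA), an inhibitor of the glucose transporter SGLT2, at 10 mg/kg/d by mouth for those 6 weeks before the same surgery, and Sham mice received vehicle and an opened chest without a tied artery. The cells came from the part of the left ventricle below the suture. ECs were sorted as CD45-CD31+ and fibroblasts as CD45-CD31-CD90+ cells, whereas cardiomyocytes were the pellet of low-speed spins and were not sorted. Groups held 4 or 5 libraries: cardiomyocytes 4 Sham, 5 Control-AMI and 4 EMPA–Pre-AMI, ECs 4, 4 and 5, and fibroblasts 4, 4 and 4.

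Total counts ran from 2031716 to 4509284 per cardiomyocyte library, from 1352514 to 2195308 per EC library and from 1946056 to 2821373 per fibroblast library. Each population was led by its own markers: 10 cardiomyocyte, 11 endothelial and 14 fibroblast genes. Cells of other types were present too. The 14 fibroblast markers summed to between 798 and 15547 CPM (each library's counts brought to a common total) in EC libraries and to between 386 and 3516 CPM in cardiomyocyte libraries, against 33928 to 55598 CPM in fibroblast libraries. The 12 leukocyte markers summed to 1029 CPM in Control-AMI EC library 3 and to at most 158 CPM in the other EC libraries. In such bulk libraries fewer cells of a type and less RNA per cell cannot be told apart. CPM between populations were scaled over all 38 libraries and CPM between treatments were scaled within a population, both by TMM, so the 2 scales differ for the same library and each value below belongs to the scale named with it. A difference was called at an FDR under 0.05 in edgeR's quasi-likelihood test, with Benjamini-Hochberg adjustment over all genes tested.

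The first question was which population held the transcripts when the artery was not tied. In Sham libraries, on the scale of all 38, 3 members were fibroblast transcripts and a pair were EC transcripts. Igfbp7 was graded from fibroblasts to ECs to cardiomyocytes, and the receptors were spread more evenly on that scale. Between fibroblasts and ECs 6 of 9 members were called (37.7% of all genes tested were), between fibroblasts and cardiomyocytes 7 of 9 (47.3% of all genes) and between ECs and cardiomyocytes 8 of 9 (52.9% of all genes). Populations without overlap of their libraries were not counted over all genes. Where such a separation is given for a member below, it describes the values and does not set the member apart from other genes. Libraries of different populations may come from the same hearts, and the sources used here do not tie them to one another. The fit of all 38 libraries treats them as independent, as do the tests of differences between populations.

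**Figure D1:**
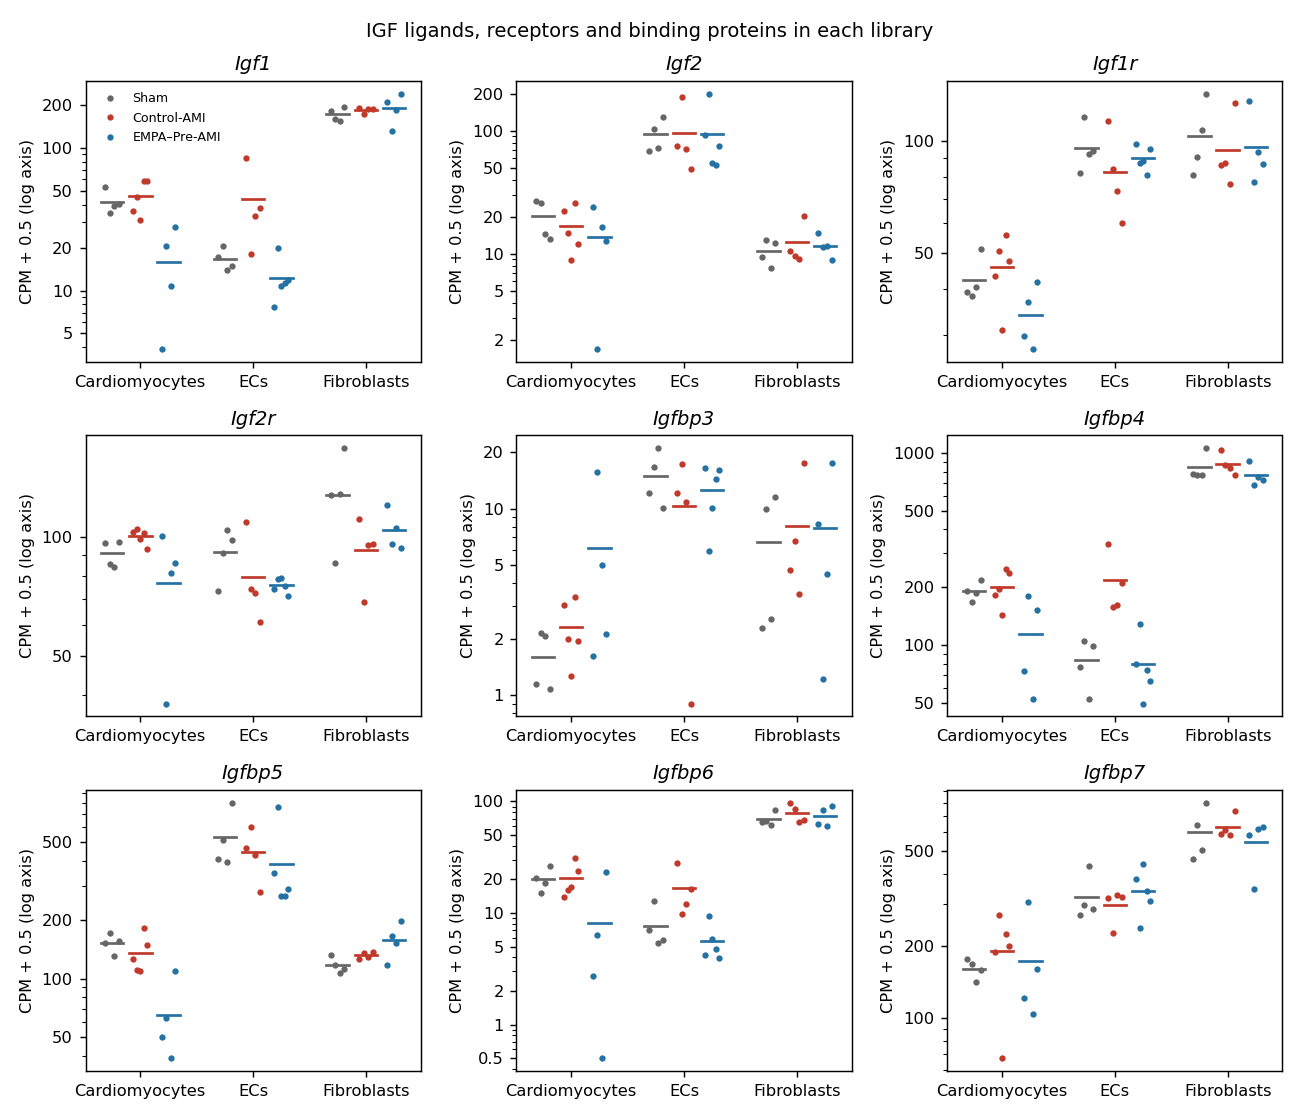
Level of each member in every library, as CPM scaled over all 38 libraries plus 0.5 on a log axis, by population and treatment group. Each point is 1 library and each bar is the group mean. Igf1, Igfbp4 and Igfbp6 were highest in the 12 fibroblast libraries, and Igf2 and Igfbp5 in ECs.

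Igf1 encodes the ligand of the type 1 receptor. On the scale of all 38 libraries it stood at 180.3, 159.9, 153 and 192 CPM in the 4 Sham fibroblast libraries, at 52.7, 34.5, 38.3 and 40.2 CPM in cardiomyocytes and at 16.8, 20.1, 13.5 and 14.3 CPM in ECs. The 3 sets of libraries did not overlap, and the order on this scale was fibroblasts, cardiomyocytes, ECs. Scaled within each population, the Sham mean was 18.2 CPM in cardiomyocytes and 25.7 CPM in ECs, so the order of this pair depends on the scaling. The fibroblast level exceeded the EC level 10.5-fold (log2 fold change 3.40 ± 0.35 (SE), FDR = 2.58e-10). It exceeded the cardiomyocyte level 4.14-fold (FDR = 2.53e-06), and the cardiomyocyte level exceeded the EC level 2.55-fold (FDR = 0.00124).

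Igfbp4 and Igfbp6, whose products bind and mostly restrain IGFs, the latter with a preference for IGF-2, had the same order on the scale of all 38 libraries. Scaled within each population, the Sham means in cardiomyocytes and ECs were 83.9 and 132 CPM for Igfbp4 and 8.65 and 11.4 CPM for Igfbp6. On the scale of all libraries the values were as follows. Igfbp4 stood at 780.3, 769, 769.9 and 1056 CPM in Sham fibroblasts, 191, 167, 186 and 217 CPM in cardiomyocytes and 76.3, 105, 52.1 and 98.6 CPM in ECs. Igfbp6 stood at 64.5, 65.7, 60.5 and 84.0 CPM in fibroblasts, 19.9, 14.8, 18.0 and 25.8 CPM in cardiomyocytes and 6.57, 12.2, 4.90 and 5.21 CPM in ECs. In both genes each fibroblast library lay above every library of the other populations, a separation not counted over all genes. The excess of fibroblasts over ECs was 10.2-fold for Igfbp4 (FDR = 1.14e-11) and 9.34-fold for Igfbp6 (FDR = 9.51e-08).

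In ECs, the Sham means of Igf1, Igfbp4 and Igfbp6 equalled 9.44%, 9.84% and 10.5% of their own fibroblast means. The same share was 3.24% for the median of the 14 fibroblast markers, with a range of 2.03% to 9.04%. All 3 members thus lay above each of the 14 markers on this measure in Sham ECs. In Sham cardiomyocytes the shares were 24.2%, 22.6% and 28.6%, inside the range of the markers, 8.14% to 31.96% with a median of 20.7%.

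Igf1, Igfbp4 and Igfbp6 are also the 3 members called in ECs between treatments, so the 250 bases before their RefSeq transcription starts are given here. The sequences are those of the RefSeq promoter table (GRCm38.p6), each found once and exactly in GRCm39, on the plus strand: chr10:87696723-87696972 for Igf1, chr11:98931820-98932069 for Igfbp4 and chr15:102052371-102052620 for Igfbp6. Capitals mark matches to a short list of promoter elements searched on both strands.
Igf1: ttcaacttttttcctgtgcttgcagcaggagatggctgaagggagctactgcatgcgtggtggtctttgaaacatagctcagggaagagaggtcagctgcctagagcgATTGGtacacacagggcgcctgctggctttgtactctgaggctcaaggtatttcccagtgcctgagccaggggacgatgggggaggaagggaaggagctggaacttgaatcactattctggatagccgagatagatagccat
Igfbp4: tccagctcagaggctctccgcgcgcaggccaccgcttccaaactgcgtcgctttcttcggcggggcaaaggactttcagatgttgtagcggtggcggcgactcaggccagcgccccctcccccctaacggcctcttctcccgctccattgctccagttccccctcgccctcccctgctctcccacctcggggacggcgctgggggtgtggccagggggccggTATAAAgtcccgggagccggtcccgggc
Igfbp6: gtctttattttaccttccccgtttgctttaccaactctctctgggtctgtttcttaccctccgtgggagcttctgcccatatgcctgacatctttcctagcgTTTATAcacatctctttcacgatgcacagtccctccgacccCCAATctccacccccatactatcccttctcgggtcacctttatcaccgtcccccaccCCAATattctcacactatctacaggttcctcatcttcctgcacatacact
The Igf1 window held the CCAAT box on the opposite strand, from 142 bases before the start. The Igfbp4 window held the TATA box, TATAAA, from 28 bases before the start. The Igfbp6 window held the TATA box on the opposite strand, from 148 bases before the start, and CCAAT from 107 and from 50 bases before it. Of the 32851 RefSeq promoters of this length, 12.4% held TATAAA and 33.8% held CCAAT on either strand. None of the 3 windows held the GC box GGGCGG, the AP-1 element TGACTCA or its reverse complement TGAGTCA, the FoxO element TTGTTTAC or the hypoxia core ACGTG, which were in 32.7%, 4.46%, 1.07% and 16.6% of the promoters. No motif was in all 3 windows. The GC content of the windows was 52.8% for Igf1, 69.2% for Igfbp4 and 49.6% for Igfbp6, beside a median of 52.4% over all promoters. In the annotation of GRCm39, Igf1 (ENSMUSG00000020053) spans chromosome 10 from 87693642 to 87772904, Igfbp4 (ENSMUSG00000017493) chromosome 11 from 98932064 to 98945218 and Igfbp6 (ENSMUSG00000023046) chromosome 15 from 102052697 to 102057953, all on the plus strand. The RefSeq start used for Igf1 lies 3331 bases from the annotated start of the gene, so it marks another start than the outermost one.

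Igf2 and Igfbp5 were highest in the EC population, and whether all ECs or a subset held them was not tested. Igf2, the ligand best known from fetal growth and expressed from the paternal allele, stood at 67.5, 104, 72.0 and 129.9 CPM in Sham ECs, 26.4, 25.2, 14.1 and 12.6 CPM in cardiomyocytes and 8.93, 12.4, 7.09 and 11.8 CPM in fibroblasts. The EC level exceeded the fibroblast level 9.22-fold (FDR = 5.08e-07) and the cardiomyocyte level 4.73-fold (FDR = 8.81e-05), whereas cardiomyocytes and fibroblasts were not called different (FDR = 0.0967). Igfbp5, encoding a binding protein held in the extracellular matrix, stood at 411, 517, 396 and 799.7 CPM in ECs, 152, 172, 131 and 154 CPM in cardiomyocytes and 132, 117, 106.3 and 111 CPM in fibroblasts. Its EC level exceeded the fibroblast level 4.55-fold (FDR = 6.10e-08) and the cardiomyocyte level 3.48-fold (FDR = 1.70e-06), and the lower pair was again not called (FDR = 0.269). Igf2 lies on chromosome 7 from 142204503 to 142220694 and Igfbp5 on chromosome 1 from 72897091 to 72914043, both on the minus strand.

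Igfbp7, also named angiomodulin, lies on chromosome 5 from 77493130 to 77555931 on the minus strand and overlaps Polr2b on the opposite strand, so that reads of the pair could be told apart only by strand. It was detected at 465, 646, 504 and 799 CPM in Sham fibroblasts, 270.1, 297, 432 and 285 CPM in ECs and 176, 167, 140.0 and 158 CPM in cardiomyocytes. Each step of this order was called in the fit without a block term, with fibroblasts 1.88-fold above ECs (FDR = 0.00885) and ECs 2.00-fold above cardiomyocytes (FDR = 0.00324). The sample numbers of the libraries run in 4 blocks, and with a term for the block neither step was called (FDR = 0.191 and 0.0590). Igfbp3, the main carrier of IGFs in blood, was scarce. It reached 11.7, 16.2, 20.5 and 9.56 CPM in Sham ECs and 1.79, 9.42, 2.07 and 11.1 CPM in fibroblasts, where the libraries fell into a lower and a higher pair, and 1, 3, 2 and 1 counts in the cardiomyocyte libraries. ECs and fibroblasts were not called different (FDR = 0.137), and ECs exceeded cardiomyocytes (FDR = 9.55e-04).

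The receptors had the flattest distribution on the scale of all 38 libraries. Scaled within each population, the Sham means in cardiomyocytes, ECs and fibroblasts were 18.4, 152 and 152 CPM for Igf1r. They were 39.9, 145 and 188 CPM for Igf2r, so the evenness depends on the scaling. The values that follow are on the scale of all libraries. Igf1r stood at 80.3, 90.4, 107 and 134 CPM in Sham fibroblasts and 81.8, 116, 91.6 and 93.4 CPM in ECs, which overlapped (FDR = 0.726), and at 38.6, 37.7, 39.9 and 50.5 CPM in cardiomyocytes, below all of them. Fibroblasts exceeded cardiomyocytes 2.46-fold (FDR = 2.30e-06) and ECs did so 2.29-fold (FDR = 7.76e-06). Igf2r stood at 127, 85.7, 128 and 168 CPM in fibroblasts, 72.6, 90.6, 104 and 98.2 CPM in ECs and 96.4, 85.3, 83.7 and 97.1 CPM in cardiomyocytes, and the 3 sets overlapped. Its only called pair was fibroblasts above cardiomyocytes, 1.40-fold (FDR = 0.0451), and this call was lost without any 1 of the 4 cardiomyocyte libraries or fibroblast libraries 1, 3 or 4 (FDR up to 0.215). Fibroblasts also exceeded cardiomyocytes in Igfbp3 (FDR = 0.0348), a call lost without any 1 cardiomyocyte library or fibroblast libraries 2 or 4 (FDR up to 0.122). With a term for the sample number block, which the populations share unequally, 3 members in place of 8 were called between ECs and cardiomyocytes, Igf1r, Igfbp3 and Igfbp5.

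The members' patterns over all 9 groups of population and treatment were compared with those of the 12085 genes kept across the 38 libraries, by Pearson's r of the mean log2 CPM. The points share their libraries and the population differences dominate them, so r is a description. Among the genes closest to Igf1 were Fstl1 (0.998) and Igfbp6 (0.996), and Igfbp4 was closest to Loxl2 (0.998), Col8a1 and Emp3 (both 0.996). Fstl1 and Loxl2 encode a secreted glycoprotein of mesenchymal cells and a collagen-crosslinking enzyme. Igfbp6 was closest to Igf1, Igsf8 and Sema5a (0.995 for Igsf8 and Sema5a). Igf2 was closest to Plvap (0.996), which encodes the diaphragm protein of EC fenestrae and caveolae, then to Kctd12 and Ptpre (0.993 each). Igfbp5 was closest to Cep350 (0.990), Arhgap29 and Cdh11 (0.987 each), and its r with Igf2 was 0.939. For the receptors the closest genes were Cxcl16 (0.992), Il17rd (0.988) and Plat (0.987) for Igf1r and Adam19 (0.938), Klhl22 (0.932) and Il17re (0.924) for Igf2r. Igfbp7 was closest to Rpl3 (0.996), Pcdhb21 (0.994) and Ces2g (0.984), and Igfbp3 to Pxdc1 (0.981), Rnf4 (0.979) and Acvr1 (0.975).

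The second question was what the tied and reopened artery changed. In ECs, Igf1 and Igfbp4 were higher in Control-AMI than in Sham by 2.63- and 2.57-fold, and these 2 were the only ones of the 9 members called, of which 4 had a positive and 5 a negative log2 fold change. Of all 10438 genes tested in ECs 6.56% were called. In cardiomyocytes 0 of 8 members tested were called (0.0655% of all genes) and in fibroblasts 0 of 9 (4.16% of all genes). At an unadjusted p under 0.05 these counts were 0 and 1, the latter Igf2r, beside 249 of all 9167 and 2057 of all 10691 genes. DESeq2 also called 0 members in both.

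**Figure D2:**
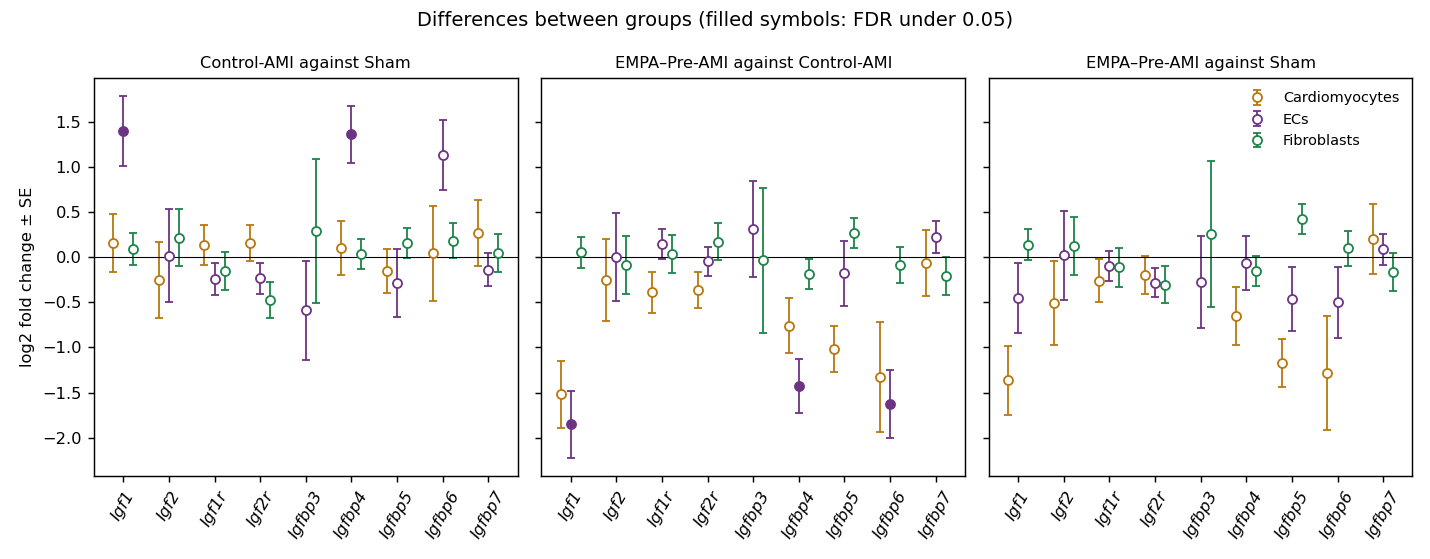
Log2 fold change with its standard error for each member and population in 3 comparisons. Filled symbols have an FDR under 0.05, and Igfbp3 was not tested in cardiomyocytes. Igf1 and Igfbp4 in ECs are filled in the first panel, these and Igfbp6 in ECs in the second, and no symbol in the third.

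On the scale of the 13 EC libraries, Igf1 stood at 27.1, 31.4, 21.4 and 22.9 CPM in Sham and at 132, 27.4, 51.5 and 58.5 CPM in Control-AMI. Library 1 of Control-AMI lay above every other EC library, and library 2 lay inside the Sham range, so the groups overlapped. The log2 fold change was 1.39 ± 0.39 (SE, FDR = 0.043), and without Control-AMI library 1 it was 0.84 (FDR = 0.131). The call was also lost without any 1 of the 4 Sham libraries, Control-AMI library 4 or EMPA–Pre-AMI libraries 3, 4 or 5, which share the estimate of the spread, with log2 fold changes between 1.33 and 1.52 (FDR up to 0.133).

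Igfbp4 stood at 123, 164, 82.7 and 158 CPM in Sham and 525.6, 247, 251 and 328 CPM in Control-AMI ECs. All 4 Control-AMI libraries lay above all 4 Sham libraries, as was the case in one direction or the other for 11.3% of the genes tested. The log2 fold change was 1.36 ± 0.32 (SE, FDR = 0.0207) and, without Control-AMI library 1, 1.08 (FDR = 0.0337). Without Sham library 1, Sham library 3 or Control-AMI library 4 it was 1.33, 1.21 or 1.38, with an FDR of 0.0554, 0.0538 and 0.0545. Igfbp6 stood at 10.6, 19.02, 7.79 and 8.33 CPM in Sham and 43.1, 14.6, 18.0 and 24.9 CPM in Control-AMI, with a log2 fold change of 1.13 ± 0.39 (SE) that was not called (FDR = 0.086).

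Fibroblast transcripts moved with these genes in ECs. The 14 fibroblast markers summed to 1333, 2606, 875 and 1406 CPM in the Sham EC libraries and to 15547, 3641, 4513 and 8327 CPM in Control-AMI, with library 1 again first and library 2 last. Of the 13 markers tested, 12 were called higher in Control-AMI ECs (4.09% of all genes were called higher), with a median log2 fold change of 2.65 against -0.02 over all genes. The log2 fold change was positive for 6 of 6 leukocyte markers tested too, of 12 listed, with a median of 3.65 and 0 called. The 12 summed to 57.2, 43.3, 17.0 and 29.8 CPM in Sham ECs and to 50.8, 75.9, 1029 and 72.8 CPM in Control-AMI, so library 3 stood apart. The 11 endothelial markers summed to between 14986 and 16531 CPM in Sham and between 7995 and 11034 CPM in Control-AMI ECs, and 3 of 11 were called lower. None of the 14 fibroblast markers was at 0 in a Control-AMI EC library, and Tcf21 was at 0 in 2 of 4 Sham ones. In Control-AMI the EC means of Igf1, Igfbp4 and Igfbp6 equalled 23.4%, 24.7% and 20.5% of the fibroblast means, within the 16.7% to 37.9% of the markers. The marker sums of Sham and Control-AMI ECs did not overlap, so a fit with the marker level as a covariate separates it poorly from treatment. With the fibroblast marker level of each library as a covariate, 0 members were called, and 5 genes of all 10438. The log2 fold change was then 0.05 ± 0.36 (SE, FDR = 0.994) for Igfbp4 and -0.56 ± 0.47 (FDR = 0.876) for Igf1.

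**Figure D3:**
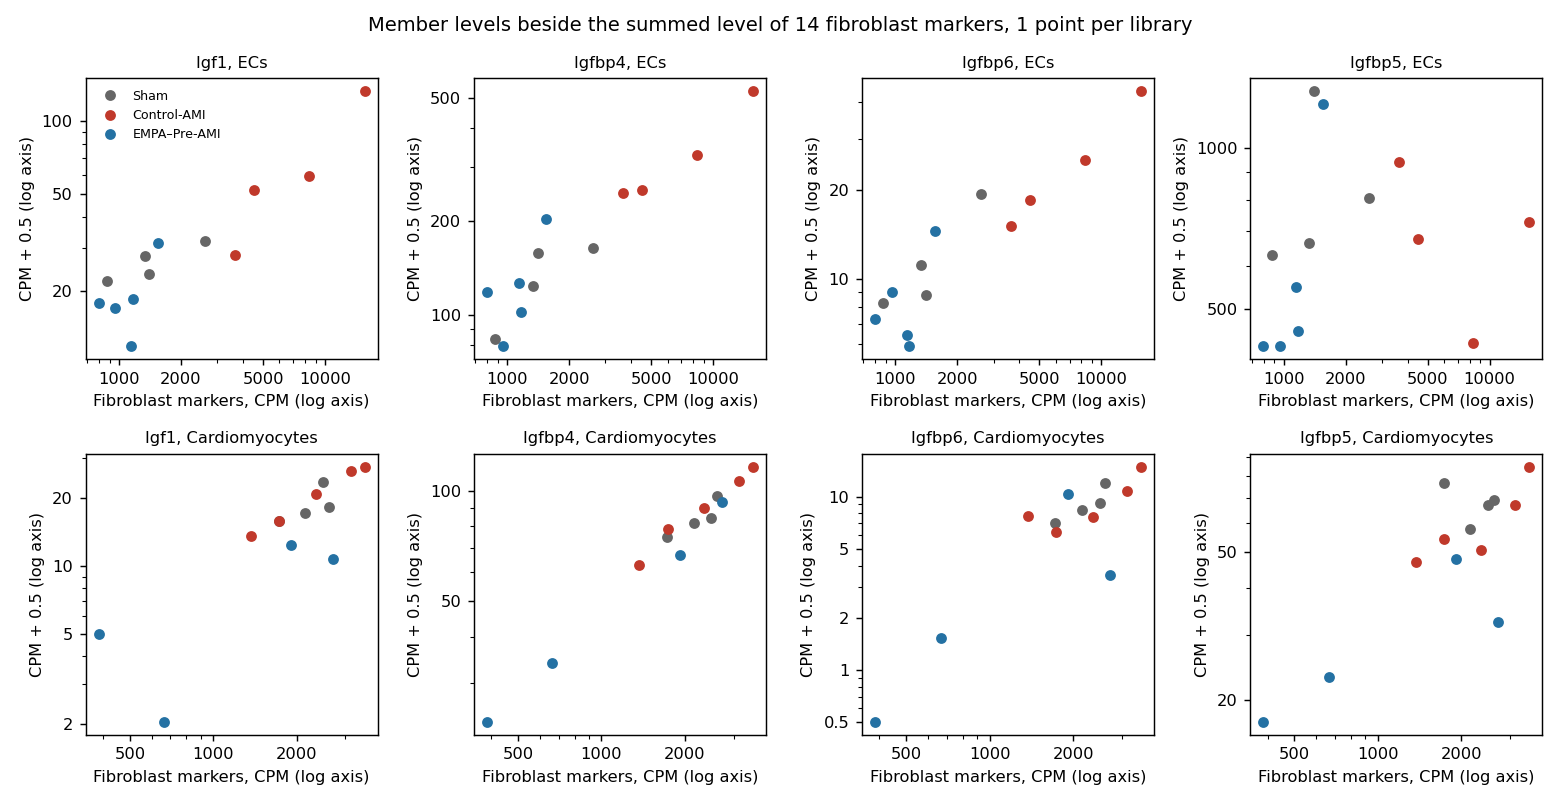
Level of Igf1, Igfbp4, Igfbp6 and Igfbp5 in each EC (top) and cardiomyocyte (bottom) library, as CPM scaled within the population plus 0.5, against the summed CPM of 14 fibroblast markers, both on log axes. Each point is 1 library, colored by treatment group. Control-AMI EC library 1 has both the highest marker sum, 15547 CPM, and the highest Igf1, Igfbp4 and Igfbp6, which is not so for Igfbp5.

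The groups share the 4 blocks of sample numbers unequally, and what a block stands for is not given in the sources used here. Control-AMI EC libraries 1 and 4 were in block 4, which held no other EC library, and Sham library 1 with EMPA–Pre-AMI libraries 4 and 5 was in block 3. With a term for the block, the log2 fold change in ECs was 0.59 ± 0.39 (SE, FDR = 0.502) for Igf1 and 0.86 ± 0.35 (FDR = 0.260) for Igfbp4. Within block 2 alone, with 3 Sham and 2 Control-AMI libraries, it was 0.64 ± 0.39 for Igf1 (FDR = 0.451) and 0.90 ± 0.40 for Igfbp4 (FDR = 0.328). Both genes kept their direction and neither was called.

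Igf2 and Igfbp5, which ECs hold above fibroblasts, were not called, nor were the receptors, Igfbp7 and Igfbp3. Igf2 stood at 109, 162, 114 and 208 CPM in Sham and 117, 296, 111 and 75.3 CPM in Control-AMI ECs (log2 fold change 0.02 ± 0.52 (SE), FDR = 0.992). Igfbp5 stood at 664, 806, 629 and 1278 CPM in Sham and 726, 943, 676 and 430.2 CPM in Control-AMI (-0.28 ± 0.38 (SE), FDR = 0.747). Both pairs of groups overlapped. The 4 lymphatic and endocardial markers (Lyve1, Prox1, Pdpn and Npr3) summed to 637, 1431, 651 and 420 CPM in the Control-AMI EC libraries, with library 2 highest, as for Igf2 and Igfbp5. Igf1r gave -0.24 ± 0.17 and Igf2r -0.24 ± 0.17 (log2 fold change ± SE, FDR = 0.480 and 0.488), and Igfbp7 gave -0.14 ± 0.19 (FDR = 0.748). Igfbp3 had 40, 45, 24 and 1 counts in Control-AMI ECs, so library 4 stood apart from the others (FDR = 0.613).

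In fibroblasts, where Igf1, Igfbp4 and Igfbp6 were highest, the levels moved little. Igf1 stood at 265, 239, 225 and 284 CPM in Sham and 279.8, 253, 274 and 270.4 CPM in Control-AMI fibroblasts, on the scale of the 12 fibroblast libraries, and the groups overlapped (log2 fold change 0.09 ± 0.18 (SE), FDR = 0.828). Igfbp4 stood at 1148, 1149, 1131 and 1564 CPM in Sham and 1518, 1264, 1226 and 1114 CPM in Control-AMI (0.04 ± 0.17 (SE), FDR = 0.93). Igfbp6 gave 0.18 ± 0.19 and Igfbp5 0.16 ± 0.17 (log2 fold change ± SE). The lowest FDR among the members was that of Igf2r, at 187, 128, 188 and 248 CPM in Sham and 163, 99.9, 139.5 and 139 CPM in Control-AMI (-0.48 ± 0.20 (SE), FDR = 0.209). Its groups overlapped and it was not called.

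The test of the difference between the populations was called for Igfbp4 only, whose change with AMI was larger in ECs than in fibroblasts by 1.33 ± 0.39 on the log2 scale (SE, FDR = 0.0488; 3.22% of all genes were called). The call lay at the edge of the threshold. It was lost in 20 of the 25 fits that left out 1 EC or fibroblast library, with the highest FDR without Control-AMI EC library 1 (1.03, FDR = 0.224). For Igf1 the difference was 1.32 ± 0.45 (SE, FDR = 0.115). Against cardiomyocytes 0 members were called in edgeR and in DESeq2 (1.51% of all genes were called in edgeR). An unadjusted p under 0.05 was found for 2, Igf1 and Igfbp4, beside 1099 of all 12085 genes.

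In cardiomyocytes the 8 members tested had log2 fold changes from -0.25 ± 0.42 for Igf2 to 0.27 ± 0.36 for Igfbp7 (± SE). Igf1 stood at 23.1, 15.3, 16.8 and 17.8 CPM in Sham and 15.4, 20.3, 13.1, 26.999 and 25.8 CPM in Control-AMI, on the scale of the 13 cardiomyocyte libraries, and the groups overlapped. Igfbp3, with 1, 3, 2 and 1 counts in Sham and 4, 2, 1, 4 and 2 in Control-AMI, did not pass the filter on low counts.

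The third question was how EMPA pretreatment altered the infarcted heart. In ECs, Igf1, Igfbp4 and Igfbp6 were lower in EMPA–Pre-AMI than in Control-AMI by 3.60-, 2.69- and 3.09-fold. These 3 of 9 members were called, all lower, beside 2.63% of all genes called and 2.28% called lower. The comparison shares its Control-AMI libraries with the one against Sham, so the opposite directions of the pair are not independent. In cardiomyocytes 0 of 8 members tested were called (0.0218% of all genes) and in fibroblasts 0 of 9 (0% of 10691 genes).

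On the scale of the EC libraries, Igf1 stood at 11.3, 30.8, 16.4, 17.3 and 18.0 CPM in the 5 EMPA–Pre-AMI libraries, beside the Control-AMI values of 132, 27.4, 51.5 and 58.5 CPM. Control-AMI library 2 lay below EMPA–Pre-AMI library 2, and the other libraries did not overlap. The log2 fold change was -1.85 ± 0.37 (SE, FDR = 0.0133) and, without Control-AMI library 1, -1.30 (FDR = 0.0216). Igfbp4 stood at 126, 204, 78.6, 118 and 102 CPM, all below the lowest Control-AMI value of 247 CPM (-1.43 ± 0.30 (SE), FDR = 0.0189). Igfbp6 stood at 5.92, 14.1, 8.48, 6.80 and 5.39 CPM, also all below Control-AMI (-1.63 ± 0.38 (SE), FDR = 0.0175). Groups without overlap were found for 4.21% of the genes tested. Igfbp6 was no longer called without Control-AMI library 1 (-1.25, FDR = 0.175). Without EMPA–Pre-AMI library 1, 4 or 5, neither Igfbp4 (-1.43 to -1.36) nor Igfbp6 (-1.57 to -1.51) passed the threshold, and Igfbp4 did not without Control-AMI library 4 (-1.44), with an FDR between 0.0559 and 0.0626 in each case. Against Sham, none of the 9 members was called in EMPA–Pre-AMI ECs (2.71% of all genes were), none had an unadjusted p under 0.05, and DESeq2 called none.

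The fibroblast markers moved the same way. They summed to 1143, 1550.1, 959, 798 and 1169 CPM in the 5 EMPA–Pre-AMI EC libraries, all below the Control-AMI minimum of 3641 CPM, and 13 of 13 tested were called lower, with a median log2 fold change of -3.05 against 0.02 over all genes. For markers of other cells, the log2 fold change was negative for 9 of 9 cardiomyocyte markers (median -1.06, 1 called) and 6 of 6 leukocyte markers (median -1.60, 0 called), and positive for 10 of 11 endothelial markers (median 0.49, 2 called). The leukocyte sum in Control-AMI was 1029 CPM in library 3 and at most 75.9 CPM in the other libraries of that group. The part of these other cells in the members' values was not tested. The EC means of Igf1, Igfbp4 and Igfbp6 then equalled 6.19%, 10.3% and 6.90% of the fibroblast means, beside 1.67% to 6.60% for the markers. As the marker sums of the EMPA–Pre-AMI and Control-AMI libraries did not overlap, a covariate fit separates marker level poorly from treatment here too. With the marker level as a covariate none of the 3 was called, nor any gene of the 10438, and the log2 fold changes were 0.32 ± 0.50 for Igf1, 0.06 ± 0.39 for Igfbp4 and 0.50 ± 0.61 for Igfbp6 (SE, FDR = 0.9998 for each). With a term for the sample number block they were -1.04 ± 0.39 (FDR = 0.628), -0.90 ± 0.34 (FDR = 0.702) and -0.84 ± 0.45 (FDR = 0.903). Within block 2 they were -1.03 ± 0.40 (FDR = 0.861), -0.89 ± 0.40 (FDR = 0.996) and -0.80 ± 0.51 (FDR = 0.998), so the direction held within the block and no call did.

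**Figure D4:**
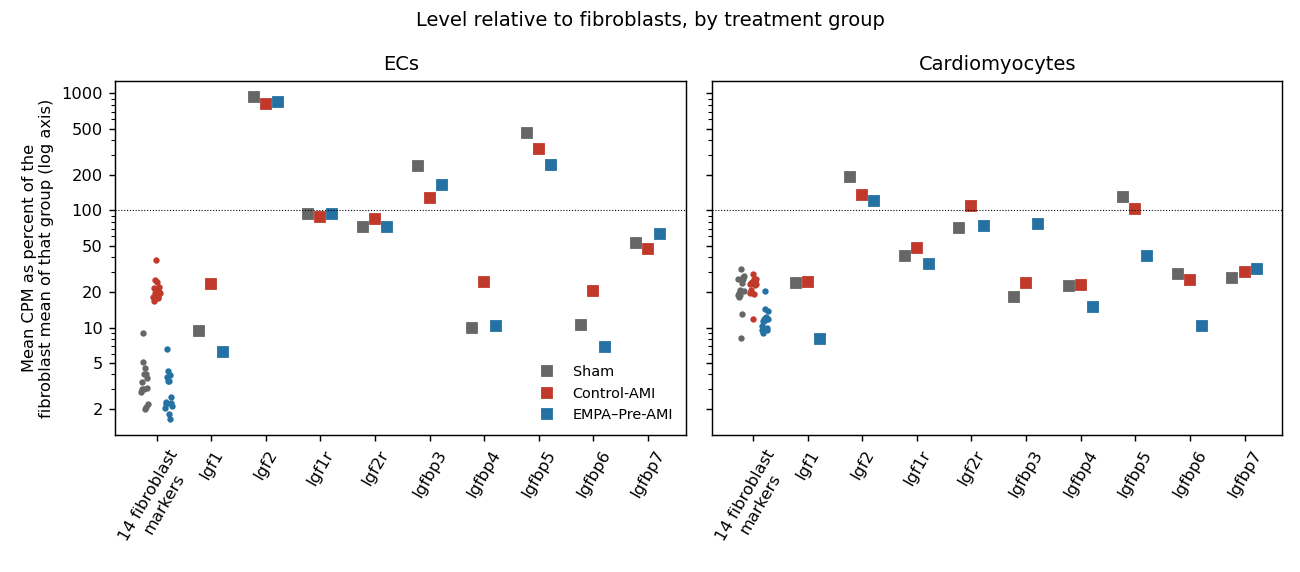
Group mean of each member in ECs (left) and cardiomyocytes (right) as a percentage of the fibroblast mean in the same treatment group, on a log axis, from CPM scaled over all 38 libraries. Small points are the 14 fibroblast markers and squares are the members. In ECs, Igf1, Igfbp4 and Igfbp6 lie between 6.19% and 24.7% in all 3 groups, below the other members, and are highest in Control-AMI, as the markers are.

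Of the EC transcripts, Igf2 stood at 145, 317, 87.1, 82.8 and 117 CPM and Igfbp5 at 549.6, 1209, 425, 424 and 453 CPM in EMPA–Pre-AMI ECs. Library 2 was the highest in both genes. The lymphatic and endocardial markers summed to 622, 1558, 417, 397 and 566 CPM in these 5 libraries, and their part in the values of the genes was not tested. Neither gene was called (log2 fold change 0.00 ± 0.49 and -0.18 ± 0.36 (SE), FDR = 0.9989 and 0.918). The receptors stayed close to Control-AMI, with 0.14 ± 0.17 for Igf1r and -0.05 ± 0.16 for Igf2r, and Igfbp7 and Igfbp3 gave 0.22 ± 0.18 and 0.32 ± 0.53. None of these 4 was called.

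In cardiomyocytes all 8 members tested had a negative log2 fold change with EMPA, from -1.52 ± 0.37 for Igf1 to -0.06 ± 0.37 for Igfbp7, with a median of -0.57 beside -0.01 over all genes. None was called, and DESeq2 called Igf1 and Igfbp5. An unadjusted p under 0.05 was found for 4 of the 8 members, beside 2295 of all 9167 genes tested. Igf1 stood at 1.54, 10.3, 4.53 and 12.0 CPM in EMPA–Pre-AMI cardiomyocytes and at 15.4, 20.3, 13.1, 26.999 and 25.8 CPM in Control-AMI (FDR = 0.0571). All 4 EMPA–Pre-AMI libraries lay below all 5 Control-AMI libraries, which was so in either direction for 5.97% of the genes tested. Igfbp5 stood at 22.7, 32.1, 17.0 and 47.5 CPM in EMPA–Pre-AMI and 53.8, 50.1, 46.6, 84.3 and 66.5 CPM in Control-AMI (-1.02 ± 0.26 (SE), FDR = 0.0571). EMPA–Pre-AMI library 4 alone reached into the Control-AMI range. Without it Igf1, Igfbp5 and Igfbp6 were called, among 1498 genes in place of 2, and without EMPA–Pre-AMI library 1 Igf1 was, among 326 genes.

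Igfbp4 gave 33.5, 92.6, 22.9 and 66.5 CPM in EMPA–Pre-AMI cardiomyocytes and Igfbp6 1.03, 3.02, 0 and 9.85 CPM, which is 2, 5, 0 and 28 counts. In both genes libraries 1 and 3 were the lowest and overlap with Control-AMI came from libraries 2 and 4 for Igfbp4 and from library 4 for Igfbp6. Libraries 1 and 3 also had the lowest sums of fibroblast markers, which were 665, 2715, 386 and 1916 CPM in EMPA–Pre-AMI and 1733, 2352, 1371, 3516 and 3134 CPM in Control-AMI. All 13 fibroblast markers tested had a negative log2 fold change, with a median of -1.06, and 0 were called. Libraries 1 and 3 were the only cardiomyocyte libraries of block 3 and library 2 the only one of block 2, so that block and treatment cannot be told apart for 3 of the 4. Against Sham, 0 of 8 members were called in EMPA–Pre-AMI cardiomyocytes (0.338% of all genes were). An unadjusted p under 0.05 was found for 2 members, beside 1672 of all 9167 genes tested. DESeq2 called 2, Igf1 and Igfbp5. Without EMPA–Pre-AMI library 4, 3 were called, these and Igfbp6.

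In EMPA–Pre-AMI fibroblasts Igf1 stood at 306, 192, 271 and 349 CPM, Igfbp4 at 1335, 1001, 1101 and 1059 CPM and Igfbp6 at 91.3, 122, 88.0 and 133 CPM. All 3 groups overlapped for each gene, and the log2 fold changes against Control-AMI were 0.05 ± 0.18, -0.19 ± 0.17 and -0.09 ± 0.20 (± SE). None of the 9 members was called in edgeR or DESeq2 and none had an unadjusted p under 0.05. The largest log2 fold change was that of Igfbp5, at 172, 242, 223 and 287 CPM beside 184, 197, 188 and 199 CPM (0.27 ± 0.17 (SE), FDR = 0.9998). Against Sham, none of the 9 was called in fibroblasts (5.11% of all genes were), and DESeq2 called none. An unadjusted p under 0.05 was found for 1, Igfbp5 (0.42 ± 0.17 (SE), FDR = 0.161), beside 2225 of all 10691 genes.

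The change with EMPA differed between ECs and fibroblasts for 1 member, Igf1, by -1.92 ± 0.44 on the log2 scale (SE, FDR = 0.00934), beside 2.04% of all genes. Without Control-AMI EC library 1 this became -1.35 (FDR = 0.114). Igfbp4 gave -1.26 ± 0.38 (FDR = 0.0803) and Igfbp6 -1.57 ± 0.56 (FDR = 0.224). Between ECs and cardiomyocytes 0 members were called (0.993% of all genes were), and DESeq2 called 0. An unadjusted p under 0.05 was found for 1, Igfbp5, beside 1993 of all 12085 genes. For Igf1 the difference between these 2 populations was -0.32 ± 0.49.

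The rest of the pathway was read from 58 other genes in 5 lists, of which 56 were in the table. In ECs, 41 could be tested, and 2 were called with AMI, both higher, beside 6.56% of all genes, and 3 with EMPA, 2 lower and 1 higher, beside 2.63% of all genes. In fibroblasts, 44 could be tested, and 3 were called with AMI, 2 higher and 1 lower, beside 4.16% of all genes. The share with AMI in ECs was thus no higher than that of all genes. Of the 42 tested in cardiomyocytes 0 were called with AMI or with EMPA against Control-AMI, with 7 in each at an unadjusted p under 0.05. Of all 9167 genes tested there, 249 with AMI and 2295 with EMPA had such a p. Against Control-AMI 0 were called in EMPA–Pre-AMI fibroblasts either, with 0 at an unadjusted p under 0.05. Irs2, an adaptor that passes the signal from the receptor to PI3-kinase, rose in Control-AMI ECs from 5.90, 12.4, 3.89 and 1.39 CPM in Sham to 41.3, 23.3, 28.7 and 21.8 CPM, on the EC scale, and stood at 9.15, 15.1, 3.96, 7.41 and 2.39 CPM in EMPA–Pre-AMI. Control-AMI lay above both other groups without overlap, which in either direction was so for 11.3% of the genes tested with AMI and 4.21% with EMPA. Its log2 fold change was 2.24 ± 0.50 (SE, FDR = 0.0101) with AMI and -1.91 ± 0.46 (SE, FDR = 0.025) with EMPA. In fibroblasts Irs2 rose with AMI as well, from 98.4, 62.9, 56.4 and 58.7 to 153, 181, 132 and 271 CPM on the fibroblast scale (1.41 ± 0.28 (SE), FDR = 0.00863), and in Sham it was 11.9-fold higher in fibroblasts than in ECs. Irs1, Pik3r2, Igf2bp2 and Htra1 were also higher in fibroblasts than in ECs in Sham, by 16.8-, 5.46-, 5.80- and 5.51-fold, and the part of fibroblast transcripts in their EC values was not tested.

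Igf2bp2, which encodes an mRNA-binding protein with Igf2 mRNA among its targets, rose with AMI in ECs, from 1.77, 1.43, 3.41 and 6.94 to 12.2, 13.4, 13.4 and 10.6 CPM (1.91 ± 0.52 (SE), FDR = 0.0276), and in fibroblasts, from 22.9, 20.2, 13.9 and 14.003 to 42.5, 53.7, 30.5 and 38.3 CPM (1.22 ± 0.29 (SE), FDR = 0.023). The EC groups did not overlap, as was so in either direction for 11.3% of the genes tested. Sham fibroblast libraries 2, 3 and 4 were in sample number block 1, and Control-AMI libraries 1, 2 and 3 in block 4. Block and treatment were thus largely mixed for the fibroblast calls with AMI. Against Sham, Irs2 (1.11 ± 0.28 (SE)) and Igf2bp2 (1.20 ± 0.29 (SE)) were the 2 pathway genes called in EMPA–Pre-AMI fibroblasts, both higher. Pik3r2, a regulatory subunit of PI3-kinase, stood at 14.7, 9.98, 9.73 and 16.7 CPM in Sham, 51.2, 15.8, 17.4 and 28.6 CPM in Control-AMI and 2.15, 2.70, 6.22, 5.56 and 6.58 CPM in EMPA–Pre-AMI ECs. EMPA–Pre-AMI lay below every Control-AMI library, where 4.21% of the genes tested had no overlap in either direction. The log2 fold change of Pik3r2 against Control-AMI was -2.61 ± 0.40 (SE, FDR = 0.00206). Against Sham 0 of the 22 adaptors and kinases tested were called in EMPA–Pre-AMI ECs. The change with EMPA in ECs differed from that in fibroblasts by -2.81 ± 0.41 on the log2 scale for Pik3r2 (FDR = 1.47e-04) and by -2.57 ± 0.54 for Irs1 (FDR = 0.00374), the sister adaptor of Irs2, which had at most 35 counts in any EC library and was not tested in ECs alone.

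**Figure D5:**
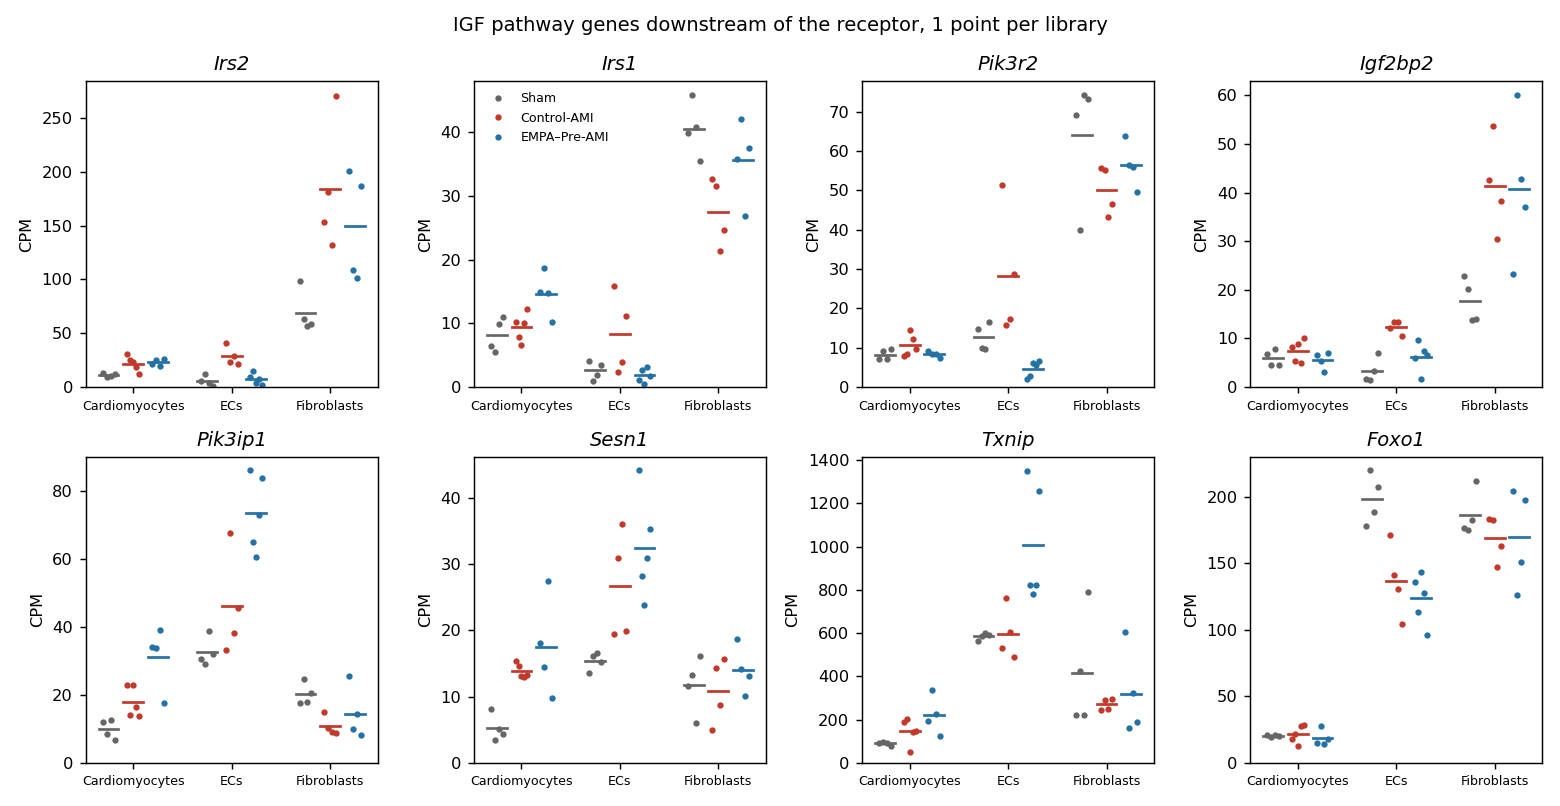
CPM, scaled within each population, of 8 of the other pathway genes in every library, with the axis from 0. Each point is 1 library and each bar is a group mean. Irs2 is highest in Control-AMI among ECs, and Txnip and Pik3ip1 are highest in EMPA–Pre-AMI among ECs.

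FoxO factors are held out of the nucleus by Akt, and the list of these factors and their targets gave its calls mainly against Sham. In EMPA–Pre-AMI ECs 5 of 12 tested were called against Sham, beside 2.71% of all genes: Pik3ip1 (1.17 ± 0.21 (SE), FDR = 0.00194), Trp53inp1 (1.08 ± 0.25), Sesn1 (1.07 ± 0.25) and Txnip (0.78 ± 0.18) higher, and Foxo1 itself (-0.68 ± 0.16) lower. These products are an inhibitor of PI3-kinase, a stress protein of autophagy, a brake on mTORC1 and a thioredoxin inhibitor. The comparison with Sham holds AMI and EMPA together. As the list was chosen with earlier results of these data known, its share of calls is a description and no test of the list. In Control-AMI ECs Foxo1 stood at 171, 141, 130 and 104 CPM, beside 178, 220, 188 and 208 CPM in Sham. Sesn1 stood at 19.5, 30.9, 36.1 and 19.9 CPM, beside 13.6, 16.2, 16.5 and 15.3 CPM. Such groups without overlap made up 11.3% of genes, and none of the 12 was called with AMI. Pik3ip1 and Trp53inp1 overlapped. Txnip was the one called against Control-AMI too, at 565, 586, 598 and 589 CPM in Sham, 529, 764, 604 and 489 CPM in Control-AMI and 1350.0, 822, 779, 822 and 1256 CPM in EMPA–Pre-AMI (0.75 ± 0.18 (SE), FDR = 0.0181). Each EMPA–Pre-AMI library exceeded each other EC library. With the fibroblast marker level as a covariate no gene was called with EMPA in ECs, so the calls of Txnip, Irs2 and Pik3r2 against Control-AMI were lost in that fit. It separates marker level poorly from treatment, as the marker sums of these groups did not overlap. In cardiomyocytes Pdk4 (2.19 ± 0.44), Sesn1 (1.75 ± 0.32) and Pik3ip1 (1.65 ± 0.29) exceeded Sham in the EMPA–Pre-AMI group, 3 of 42 pathway genes tested, beside 0.338% of all genes. As 3 of the 4 EMPA–Pre-AMI cardiomyocyte libraries lie in blocks without a Sham library, block and treatment cannot be told apart for them, and with a term for the block 2 genes of all 9167 were called in place of 31. Pdk4, which restrains pyruvate oxidation, had 14.1, 18.0, 7.87 and 13.2 CPM in Sham, 43.9, 50.8, 96.9, 44.3 and 58.1 CPM in Control-AMI and 128, 26.0, 57.4 and 34.5 CPM in EMPA–Pre-AMI cardiomyocytes, so that both groups with AMI lay above Sham. For Sesn1 and Pik3ip1 too, every Control-AMI cardiomyocyte library lay above every Sham one. The lowest Control-AMI values were 12.999 CPM for Sesn1 and 13.884 CPM for Pik3ip1, beside highest Sham values of 8.17 and 12.653 CPM. Such a separation was not counted over all genes in this comparison. None of these genes was called in cardiomyocytes with AMI, or with EMPA against Control-AMI. Sesn1 overlaps Cep57l1 on the opposite strand. In fibroblasts, Bcl6, a transcriptional repressor, fell with AMI, from 55.6, 69.9, 74.2 and 106.2 to 26.1, 51.8, 22.3 and 42.0 CPM (-1.10 ± 0.30 (SE), FDR = 0.0457).

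None of the IGFBP proteases and their inhibitors was called in any of these comparisons within a population, with 4 tested in cardiomyocytes, 4 in ECs and 6 in fibroblasts. For the following pair, named after their values were seen, values are given without a call. In ECs, Htra1, a serine protease that cuts IGFBPs had the signs of Igf1 (0.98 ± 0.36 with AMI, FDR = 0.113, and -1.18 ± 0.34 with EMPA, FDR = 0.0739, log2 fold change ± SE). Stc1, whose product inhibits the protease PAPP-A, gave 1.05 ± 0.36 with AMI (FDR = 0.117). Of the remaining ligands, receptors and binding proteins in the table, Insr was the one with enough counts to test and was not called, while Igfbp1, Igfbp2, Igfals, Igfbpl1, Ins2 and Insrr had too few counts in each population.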

How the data were processed

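RNA was measured in 38 libraries, each from 2 pooled hearts, with a 3′ library kit. Per the labels and the study's methods, the authors trimmed reads with cutadapt 2.8 and quantified them with Salmon against the mouse genome GRCm39, and deposited 1 table of estimated counts per gene. Of its values 4.55% were not whole, and all were rounded. Total counts per library limit the precision: 3 counts correspond to between 0.728 and 2.08 CPM.

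From there, edgeR 4.0.16 in R 4.3.3 was used with TMM scaling, a filter on low counts (filterByExpr, minimum 10) and robust quasi-likelihood tests, adjusted by Benjamini-Hochberg over all genes tested. Treatments were compared in 1 fit per population, and populations and differences between populations in 1 fit of all 38 libraries. DESeq2 1.42.0, other scalings and filters, block and covariate terms, and leaving out each library were the alternatives. The fit was tested on simulated data. Symbols were available for 35407 of 35682 genes. The text names all 9 members, up to 6 called pathway genes per comparison and, for each member, the 3 genes most like it, of which 1 is not reported here. Members, lists and markers were chosen with earlier results of these data known. Libraries were not treated as paired by replicate number. The median correlation of same-numbered libraries' deviations from their group means was 0.01 in cardiomyocytes, 0.04 in ECs and 0.10 in fibroblasts. For libraries of other numbers it was -0.03, -0.01 and -0.01. A correlation above 0.1 was found in 3 of 12, 4 of 12 and 6 of 12 same-numbered pairs, beside 8 of 44, 3 of 44 and 9 of 36 others. These values do not decide whether the numbers pair the libraries. Promoters came from the RefSeq table of GRCm38.p6.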

Additional observations from a re-analysis of the deposited data

Results flagged for a closer look

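In 8 of the 81 sets of libraries (9 members in 9 groups) the highest or lowest library stood far from the others by Dixon's test. Chance alone sets apart about 1 in 20. All values are CPM on the scale of the population. In EMPA–Pre-AMI ECs, library 2 had the highest Igf2, 317 CPM beside 82.8 to 145 CPM in the others, and the highest Igfbp5, 1209 CPM beside 424 to 549.6 CPM. That library also had the highest sum of lymphatic and endocardial markers, 1558 CPM beside 397 to 622 CPM. In Sham ECs, library 3 had the highest Igfbp7 at 686 CPM, and in Control-AMI ECs library 2 had the lowest at 354 CPM. In fibroblasts, Igfbp4 was highest in Sham library 4 at 1564 CPM beside 1131 to 1149 CPM, Igf2 was highest in Control-AMI library 4 at 28.8 CPM, and Igfbp7 was lowest in EMPA–Pre-AMI library 2 at 508 CPM. In Sham cardiomyocytes, Igf1r was highest in library 4 at 22.4 CPM beside 16.8 to 17.4 CPM.

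The effects of the same contrast differed between ECs and fibroblasts for 2 members, by the test of the difference itself in edgeR. Igfbp4 changed more with AMI in ECs, by 1.33 on the log2 scale (FDR = 0.0488), and Igf1 changed more with EMPA in ECs, by -1.92 (FDR = 0.00934). Without Control-AMI EC library 1 the differences were 1.03 (FDR = 0.224) and -1.35 (FDR = 0.114).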

How the results depend on the processing

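Of 524 values of 28 results for single members under the alternatives, 433 kept their direction and call, 87 kept their direction and lost the call, and 4 turned. The 4 came from the fit with the fibroblast marker level as a covariate: Igf1 with AMI in ECs (-0.56 on the log2 scale), and Igf1 (0.32), Igfbp4 (0.062) and Igfbp6 (0.50) with EMPA in ECs. The marker sums of Control-AMI ECs did not overlap those of the other EC groups, so that fit separates marker level poorly from treatment. Counts of members called moved as follows, and the cause was not tested except where fewer genes or samples entered. With AMI in ECs (2 called), 0 were called with the covariate, with a term for the sample number block and within block 2, and 1 with only the 2 groups compared. With EMPA in ECs (3 called), 0 were called with the covariate, with the block term and within block 2. In cardiomyocytes with EMPA (0 called), 2 were called by DESeq2, 2 without the filter on low counts and 1 under the stricter filter (10 counts or more in each library), and against Sham 2 by DESeq2 and 2 without the filter. In EMPA–Pre-AMI fibroblasts against Sham, 1 was called with the block term, Igfbp5. Between Sham populations, the stricter filter left 3 calls between fibroblasts and ECs, 4 between fibroblasts and cardiomyocytes and 4 between ECs and cardiomyocytes, where the block term left 3. For the difference in the AMI effect between ECs and fibroblasts (1 called), 0 were called with RLE scaling, without robust estimation, without the filter, under the stricter filter or with the block term. For that in the EMPA effect (1 called), 0 were called under the stricter filter. RLE scaling turned no direction.

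The replicate numbers are shared by the groups, and whether they pair the libraries is not known. With the replicate number as a block, 1 member was called in ECs with AMI and 1 with EMPA (Igfbp4 in both), 1 in EMPA–Pre-AMI cardiomyocytes against Sham, 1 for the difference in the AMI effect between ECs and cardiomyocytes and 2 for that in the EMPA effect between ECs and fibroblasts.

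When each library was left out in turn, the members called ranged from 0 to 3 with AMI in ECs, from 1 to 3 with EMPA in ECs, and from 0 to 3 in EMPA–Pre-AMI cardiomyocytes against Control-AMI and against Sham. They ranged from 0 to 2 for the difference between ECs and fibroblasts in the AMI and in the EMPA effect, and from 0 to 2 for that between ECs and cardiomyocytes in the AMI effect. Depth limits Igfbp3, with 1 to 13 counts in cardiomyocyte libraries, and Igfbp6, with 0 to 45 there.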
